A study of Mus musculus with 16 samples.

Results

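The genes described here are 31 genes of blood vessel endothelium and of the signals that endothelial cells receive or send, measured in mouse pancreatic islets in which the zinc finger transcription factor gene Insm1 was deleted in adult beta cells. The members were fixed by name. Each was read from the probe sets of the Affymetrix mouse expression array used that are annotated to that gene alone, by its brightest probe set over the 16 arrays. All 31 were measured, among 18193 genes in all. For this report 26 of them are called endothelial genes (13 surface and junction proteins, 9 receptors and signalling proteins and 4 transcription factors), and 5 are secreted signals.

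The arrays came from 8 mutant and 8 litter-matched control islet preparations, with 1 array for each. Mutants were RIPcreER; Insm1flox/lacZ, so that 1 Insm1 allele was floxed and the other carried lacZ in every cell of the body. Controls were RIPcreER; Insm1flox/+, with 1 floxed and 1 wild-type allele. RIPcreER is a tamoxifen-activated recombinase driven by the rat insulin promoter and thus aimed at beta cells, and all animals of both groups carried it. All were of mixed CBA/J, C57BL/6 and 129/ola background. All received tamoxifen (25 mg, 21-day release) at an age of 4 to 5 weeks, and islets were isolated at 8 to 12 weeks. The floxed allele could therefore be deleted in the beta cells of controls too, and the groups differ in the allele that remained. Endothelial cells were not targeted by the recombinase, but in mutants they carried the lacZ allele. The signal of Insm1 itself was 11.26 ± 0.23 (SD) over the control arrays and 11.02 ± 0.22 over the mutant arrays and did not pass the test (limma adjusted p = 0.182). Where its probes lie relative to the deleted part is not known here, and this signal therefore does not check the labels.

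Islets are threaded by a dense network of fenestrated capillaries. Beta cells secrete VEGF-A, which acts through the receptor VEGFR2 (Kdr) on endothelial cells and keeps this network in place. VEGFR1 (Flt1) binds VEGF-A, VEGF-B and placental growth factor, and neuropilin 1 (Nrp1) is a co-receptor. Angiopoietins act through the receptor Tie2 (Tek) and set how stable and how leaky the vessels are. In whole islets, endothelial transcripts come from the minority of cells that line vessels, whereas Vegfa and Vegfb can also come from endocrine cells. In such bulk samples, fewer cells of a type and less RNA per cell cannot be told apart.

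Of the 31 genes, 1 passed the test between mutant and control islets. This was Vegfb, which encodes vascular endothelial growth factor B and was 1.39-fold lower in mutants. None of the 26 endothelial genes passed, and 2 of them, Pecam1 and Cldn5, had an unadjusted p under 0.05. Among all 18193 genes tested, 8.76% were called, 4.66% lower and 4.1% higher. The share of 1 in 31 was thus not above this background. Values throughout are log2 signals, each group has 8 arrays, a difference is the mutant mean less the control mean, and a gene is called at a limma p, adjusted over all genes by the Benjamini-Hochberg method, under 0.05. The median difference was −0.09 over the 31 genes and −0.01 over all genes tested.

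**Figure D1:**
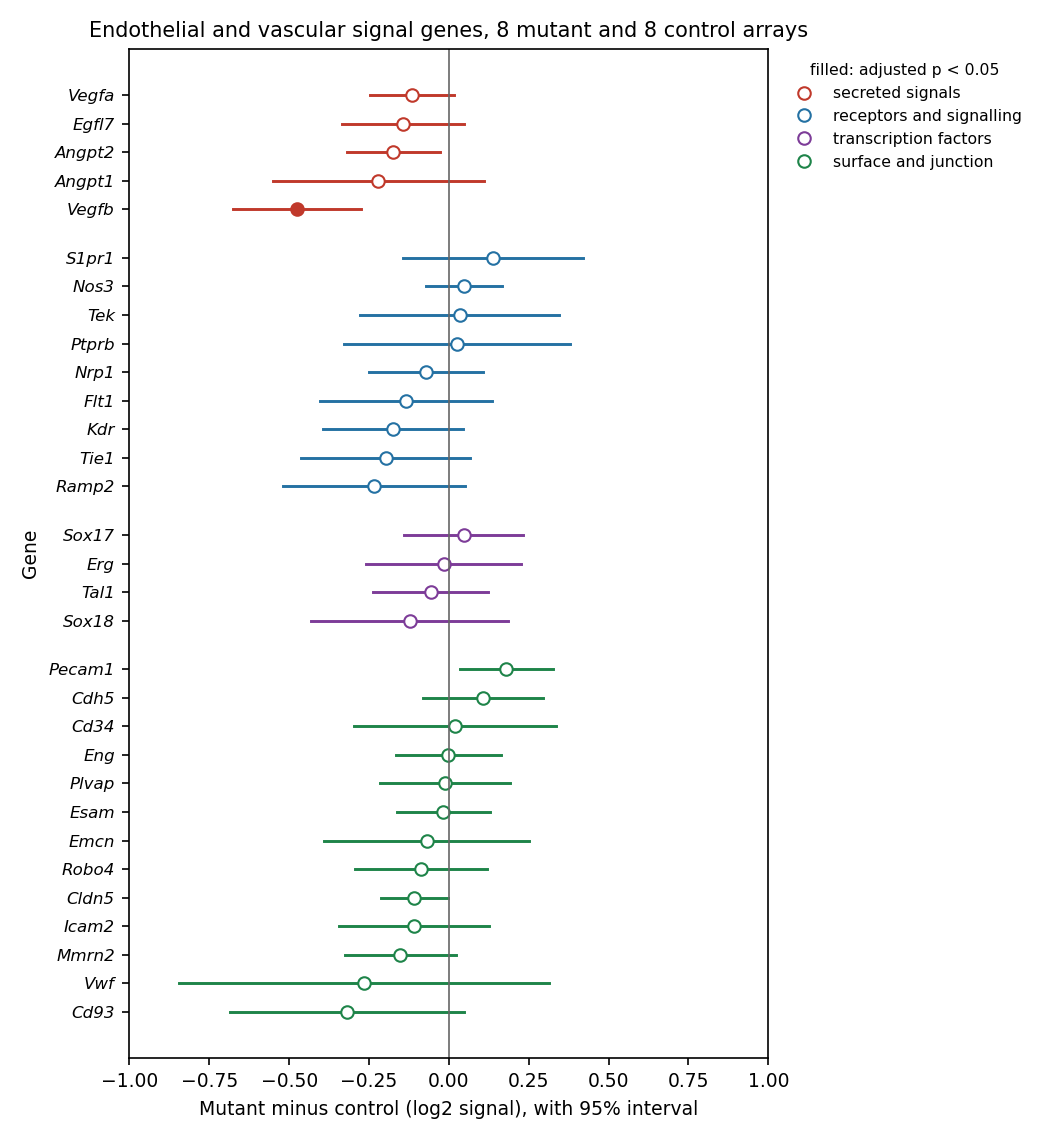
Mutant minus control difference in log2 signal (x axis) of each of the 31 genes (y axis), with its 95% interval from limma, coloured by the role of the gene. Filled points passed the adjusted threshold: only Vegfb, at −0.48, did so, and the endothelial genes lie between −0.32 (Cd93) and 0.18 (Pecam1).

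The 300-base promoter windows of 3 VEGF ligand genes are printed because the text sets these ligands side by side: Vegfb was lower in mutants, Vegfa did not pass the test, and Vegfc, a ligand outside the 31 genes, was higher. The windows span the annotated start of each gene and are taken from RefSeq on GRCm38.p6, in the direction of the gene. Capitals mark matches to the E-box CANNTG, the class of site bound by helix-loop-helix factors such as Neurod1, which the title of the series names as a partner of Insm1. The Vegfb window is chr19:6987602-6987901 on the minus strand, the first of 2 Vegfa windows is chr17:46032328-46032627 on the minus strand, and the Vegfc window is chr8:54077282-54077581 on the plus strand.
Vegfb: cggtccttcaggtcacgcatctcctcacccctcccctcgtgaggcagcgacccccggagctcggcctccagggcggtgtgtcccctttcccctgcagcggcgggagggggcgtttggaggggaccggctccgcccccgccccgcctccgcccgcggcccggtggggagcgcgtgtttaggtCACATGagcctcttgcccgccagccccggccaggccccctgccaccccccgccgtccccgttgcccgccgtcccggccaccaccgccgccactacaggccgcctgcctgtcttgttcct
Vegfa: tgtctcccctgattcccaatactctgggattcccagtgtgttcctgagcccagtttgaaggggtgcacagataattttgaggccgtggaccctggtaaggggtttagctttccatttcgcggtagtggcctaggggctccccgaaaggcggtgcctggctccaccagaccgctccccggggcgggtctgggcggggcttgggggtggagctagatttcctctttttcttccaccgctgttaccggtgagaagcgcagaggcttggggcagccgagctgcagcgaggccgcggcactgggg
Vegfc: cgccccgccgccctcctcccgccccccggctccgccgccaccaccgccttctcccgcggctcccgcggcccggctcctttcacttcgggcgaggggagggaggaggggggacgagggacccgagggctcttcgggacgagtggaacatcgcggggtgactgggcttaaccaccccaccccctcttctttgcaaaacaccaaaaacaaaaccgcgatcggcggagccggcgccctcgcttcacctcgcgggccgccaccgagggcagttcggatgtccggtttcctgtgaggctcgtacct

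All 3 windows are rich in G and C, at 75.3% for Vegfb, 62% for Vegfa and 70.3% for Vegfc. The Vegfb window holds 1 E-box, the Vegfa and Vegfc windows shown hold 0, and the second Vegfa window, which is not printed, holds 2. Of all 32851 promoter windows of this length, 72.3% hold the letters CANNTG on either strand. The forkhead core TGTTTAC (Foxa2 is the other partner named in the title) is in none of the 3 and in 3.65% of all windows. The hypoxia response core ACGTG, searched on both strands, is in none of the 3 and in 19.6% of all windows. The second Vegfa window holds it. Promoter windows were matched for 15 of the 31 genes, 12 of them endothelial with 15 windows. The Ets site CAGGAAG, of the class bound by endothelial Ets factors such as Erg, is in 4 of these 15 windows (Cd34, Emcn, Erg and Robo4) and in 13.3% of all windows. A match is a stretch of letters, and binding was not measured here.

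Among the secreted signals, Vegfb is the ligand that binds VEGFR1 without binding VEGFR2. Its log2 signal lay between 8.47 and 9.20 on the control arrays, with a median of 8.81. On the mutant arrays it lay between 8.03 and 8.52, with a median of 8.38. The groups overlapped, because control replicate 2 was at 8.47, but 6 of 8 mutant arrays lay below every control array, and the mutant array was the lower one in 8 of 8 same-numbered pairs. The means were 8.83 ± 0.23 (SD) and 8.36 ± 0.16, a difference of −0.48 ± 0.10 (SE, 95% interval −0.68 to −0.28, limma adjusted p = 0.00373). Vegfb has 1 probe set, so no other probe set of the gene could be compared. The difference was −0.41 without pairs 1 to 3 (adjusted p = 0.0148). The mutants of those pairs had the 3 highest immune marker means of the mutant group. The call was lost in the fit with the replicate block and both the acinar and immune marker means, where the difference was −0.91 (adjusted p = 0.175) and 10 of all 18193 genes were called.

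Vegfa, the main islet angiogenic factor, lay between 11.20 and 11.56 on the control arrays (median 11.39) and between 11.05 and 11.43 on the mutant arrays (median 11.24). The groups overlapped and 4 of 8 pairs went each way. The difference was −0.12 ± 0.06 (SE, 95% interval −0.25 to 0.02, limma adjusted p = 0.313). The interval reaches a fold of 1.19 at its far end, so a change larger than this is outside it. Without pairs 1 to 3 the difference was 0.01. A second, dimmer Vegfa probe set read 9.11 ± 0.22 (SD) and 9.05 ± 0.14 (adjusted p = 0.79 over all probe sets).

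Angpt1 and Angpt2 encode angiopoietins, the first an activating Tie2 ligand of mural cells and the second a context-dependent antagonist made by endothelium. Angpt1 lay between 4.72 and 5.86 in controls (median 5.03) and between 4.35 and 5.34 in mutants (median 5.00), overlapping over most of this range. Its difference was −0.22 ± 0.16 (SE, limma adjusted p = 0.472). The mutant array was lower in 7 of 8 pairs, and with the replicate number as a block the same difference was called (adjusted p = 0.0475). Its dimmer second probe set differed by 0.04 ± 0.09, and both means lay below all array medians, where background may compress differences.

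Angpt2 lay between 7.33 and 7.69 in controls (median 7.49) and between 7.19 and 7.52 in mutants (median 7.27). The groups overlapped, with 5 of 8 mutant arrays below every control array and 6 of 8 pairs lower. The difference of −0.17 ± 0.07 (SE) was not called (limma adjusted p = 0.141). A second and much dimmer probe set of Angpt2, at 4.77 ± 0.12 (SD) in controls and 4.55 ± 0.06 in mutants, was called lower (−0.22 ± 0.05, adjusted p = 0.0139 over all probe sets). Of the 25 further probe sets of the 31 genes it was the 1 that was called. With the replicate block 3 were called, this one, a second Cd93 probe set that was lower (−0.44 ± 0.16 without the block, adjusted p = 0.037 with it) and a dim Nrp1 probe set that was higher (0.25 ± 0.11, adjusted p = 0.0216). Of all genes, each read by its brightest probe set, 8.76% were called without the block and 17.6% with it. The counts among the 25 were not above these shares. Egfl7, a secreted protein of endothelial cells, differed by −0.14 ± 0.09 (adjusted p = 0.403), and passed as lower once the acinar marker mean was a covariate (−0.30, adjusted p = 0.0261). Without pairs 1 to 3 the difference of Egfl7 was 0.00. All 5 secreted signals had differences below 0 with all arrays, and 3 had without pairs 1 to 3, where Egfl7 and Vegfa were above 0.

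**Figure D2:**
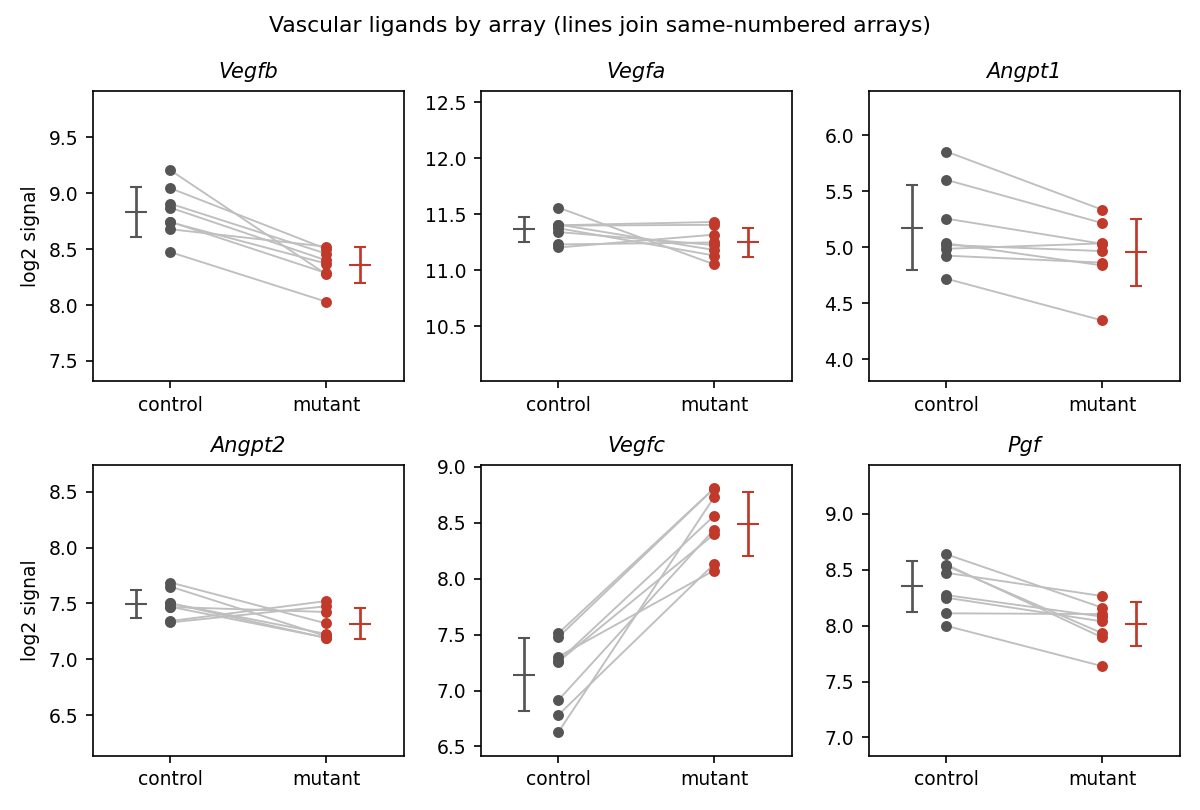
Log2 signal (y axis, each panel spanning the same range of 2.6) of Vegfb, Vegfa, Angpt1, Angpt2 and, outside the 31 genes, Vegfc and Pgf, on control and mutant arrays. Points are arrays, lines join same-numbered arrays, and bars give the mean ± SD of 8. For Vegfb and Pgf the mutant array was the lower one of all 8 pairs and for Vegfc the higher one, whereas Vegfa went each way in 4.

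The receptors through which these ligands act did not pass the test. Kdr, the main signalling receptor for VEGF-A, lay between 9.87 and 10.21 in controls (median 10.004) and between 9.36 and 10.17 in mutants (median 9.91). Its difference was −0.17 ± 0.10 (SE, 95% interval −0.39 to 0.04, limma adjusted p = 0.364). The low values were those of mutant replicates 1 and 3, at 9.36 and 9.43, while the other mutant arrays lay within the control range. Flt1, the receptor shared by VEGF-A and VEGF-B, lay between 10.07 and 10.35 in controls (median 10.22) and between 9.49 and 10.48 in mutants (median 10.17). Its difference was −0.13 ± 0.13 (adjusted p = 0.616), and the same mutant arrays were the low ones, at 9.54 and 9.49. Without pairs 1 to 3 the differences were −0.01 for Kdr and 0.01 for Flt1. All 4 probe sets of Flt1 had differences below 0, from −0.06 to −0.21, and none was called.

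The co-receptor gene Nrp1 differed by −0.07 ± 0.09 (SE). In the angiopoietin pathway, the Tie2 gene Tek differed by 0.03 ± 0.15, Tie1, an orphan receptor that partners Tie2, by −0.20 ± 0.13, and Ptprb, the endothelial phosphatase VE-PTP that restrains Tie2, by 0.02 ± 0.17. S1pr1, a sphingosine 1-phosphate receptor that tightens vessel walls, differed by 0.14 ± 0.13, and Nos3, endothelial nitric oxide synthase, by 0.05 ± 0.06. Adjusted p for these 6 lay between 0.405 and 0.959 in limma.

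Ramp2, the partner that makes the adrenomedullin receptor in endothelium, had the lower value on the mutant array of all 8 pairs. It lay between 8.42 and 9.04 in controls (median 8.88) and between 7.85 and 8.90 in mutants (median 8.71). Mutant replicates 1 and 3, at 7.85 and 8.32, lay below every control array, and the groups overlapped otherwise. The difference of −0.23 ± 0.13 (SE) was not called (limma adjusted p = 0.348), but it was with the replicate block (adjusted p = 0.0421). In that fit 17.6% of all genes were called, 9.71% lower, and 3 of the 31 genes (Vegfb, Ramp2 and Angpt1), all of them lower. Of all genes 7.88% were called higher in that fit, and of the 31 genes 0 were. With the block and the mean of endothelial markers outside the 31 genes, adjusted p was 0.00181 for Vegfb, 0.0522 for Ramp2 and 0.0536 for Angpt1.

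None of the 13 surface and junction genes used here as endothelial markers passed the test. Pecam1 encodes CD31, an adhesion molecule at endothelial junctions that platelets and some leukocytes also carry. It lay between 6.34 and 6.74 in controls (median 6.61) and between 6.61 and 6.92 in mutants (median 6.77). The groups overlapped, 6 of 8 pairs were higher in the mutant, and the difference of 0.18 ± 0.07 (SE, 95% interval 0.03 to 0.33) was not called (limma adjusted p = 0.126). With the 3′ minus 5′ difference of control transcripts, a measure of RNA quality, as a covariate it was called higher (0.26, adjusted p = 0.0491). That measure was 0.44 ± 0.09 (SD) in controls and 0.36 ± 0.06 in mutants, lower in 8 of 8 pairs.

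Cdh5 encodes VE-cadherin, the adhesion protein of endothelial junctions. It lay between 6.60 and 7.01 in controls (median 6.92) and between 6.53 and 7.24 in mutants (median 6.998). The groups overlapped, with 3 mutant arrays above every control array and 1 below every control array. Its difference was 0.11 ± 0.09 (SE, 95% interval −0.08 to 0.29, limma adjusted p = 0.555). Plvap, the diaphragm protein of fenestrated capillaries, differed by −0.01 ± 0.10, with an interval that reaches a fold of 1.16 at most. Esam and Eng, a junction protein and a co-receptor for BMP9, differed by −0.02 ± 0.07 and −0.00 ± 0.08, with intervals that reach folds of 1.12 each. For Emcn, a sialomucin of capillaries and veins, the difference was −0.07 ± 0.15, and for the surface sialomucin Cd34 it was 0.02 ± 0.15.

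The remaining surface genes had differences below 0 that did not pass. Cd93 had the largest, −0.32 ± 0.17 (SE, limma adjusted p = 0.312), and it was lower in 7 of 8 pairs. Mutant replicates 1 and 3, at 7.90 and 8.21, lay far below the control range of 8.77 to 9.53, and without pairs 1 to 3 the difference was −0.09. Its extracellular partner Mmrn2 differed by −0.15 ± 0.08, the adhesion gene Icam2 by −0.11 ± 0.11 and the receptor gene Robo4 by −0.09 ± 0.10. The tight junction gene Cldn5 differed by −0.11 ± 0.05, and Vwf, the von Willebrand factor of larger vessels, by −0.27 ± 0.27. Adjusted p for these 5 lay between 0.213 and 0.682. The control means of Cldn5, Vwf, Tie1, Tal1 and Angpt1 lay below the lowest array median of 6.29, while those of the other 26 genes lay above it. Differences of such dim genes may be compressed by background, which was not measured here.

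The endothelial transcription factors gave the same picture. The Ets factor gene Erg differed by −0.02 ± 0.12 (SE), the SoxF genes Sox17 and Sox18 by 0.05 ± 0.09 and −0.12 ± 0.15, and Tal1, which acts in both endothelium and blood progenitors, by −0.06 ± 0.09. Their limma adjusted p lay between 0.702 and 0.961. Pairs were lower in 6 of 8 for Erg and Sox18, 5 of 8 for Tal1 and 4 of 8 for Sox17.

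For the 26 endothelial genes together, the 95% intervals, which are not adjusted for the number of genes, give the size of change that these arrays allow. The interval lay within a 1.2-fold change in either direction for 9 genes, within 1.5-fold for 24 and within 2-fold for all 26. The 2 genes whose intervals reach past 1.5-fold were Cd93 and Vwf. Cldn5 and Tal1, which are among the 9, and Tie1 and Vwf had control means below the lowest array median. Background, which was not measured, may compress their differences, so their intervals are not taken to bound the change in transcript level. Groups overlapped for all 31 genes. Over all genes tested, every mutant array lay below every control array for 1.09% and above every control array for 1.19%. With shares this small, the overlap does not set the 31 genes apart from all genes.

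The spread of the endothelial genes across arrays was not even. The mean of the 26 genes per array was 8.16 ± 0.10 (SD) in controls, from 8.05 to 8.35, and 8.10 ± 0.17 in mutants, from 7.73 to 8.27. Mutant replicate 1 had the lowest mean, and 15 of the 26 genes had their lowest signal of all 16 arrays there. Among them were Cdh5, Plvap, Emcn, Kdr and Tie1. Icam2 instead had its highest mutant signal there, at 7.93. Mutant replicate 3 held the lowest signal of Flt1, Ptprb and Mmrn2. Immune marker means were highest of all 16 arrays on these same preparations, 8.80 on replicate 1 and 8.63 on replicate 3, against 6.78 to 8.03 on control arrays. Acinar marker means were 12.74 and 11.51 there, against a mutant median of 11.03. Without mutant replicate 1 the median difference of the 26 genes was −0.01, against −0.06 with it, and without pairs 1 to 3 it was 0.02. Of the 31 genes, 23 had a difference below 0 with all arrays and 13 without pairs 1 to 3. In that subset 1 of the 31 genes was called lower and 0 higher, against 2.46% and 2.09% of all genes. With the immune marker mean as a covariate 16 were below 0. Robo4 was highest on replicate 2 in both groups, at 8.23 in the control and 8.18 in the mutant.

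**Figure D3:**
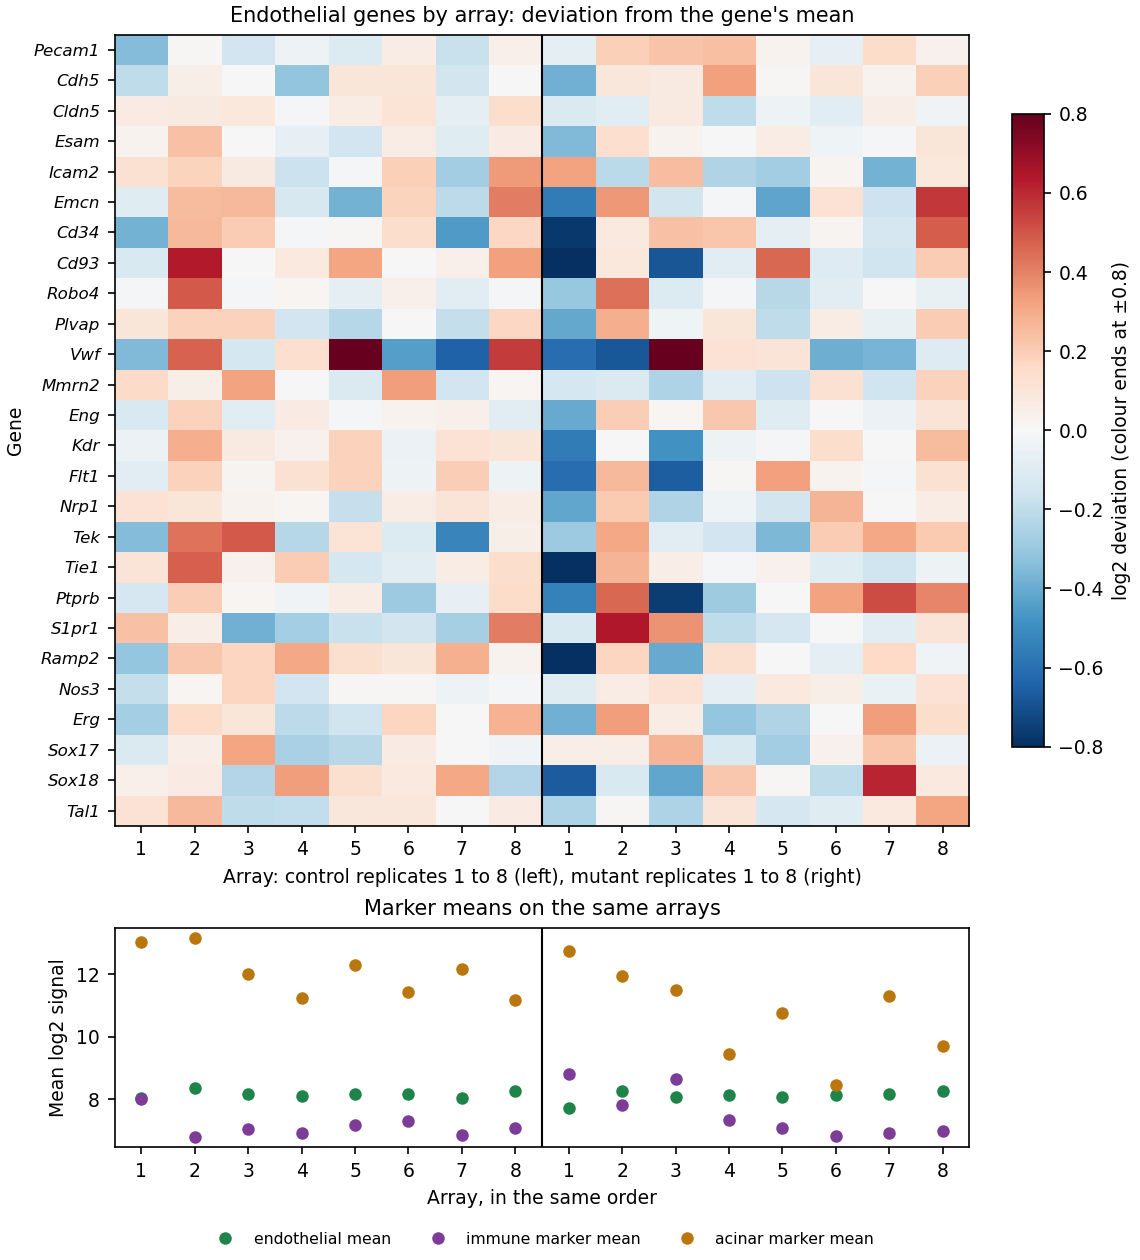
Upper panel: log2 deviation of each endothelial gene (rows) from its mean over the 16 arrays (columns, control replicates 1 to 8 and then mutant replicates 1 to 8). Lower panel: mean log2 signal of the 26 endothelial genes, of immune markers and of acinar markers on the same arrays; the column of mutant replicate 1 is the lowest for 15 genes, and its immune marker mean of 8.80 is the highest of the 16.

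Endothelial markers outside the 31 genes showed a similar share of calls. Of 29 measured, 1 was lower and 0 higher, with a median difference of −0.04. This was 3.45% of them, against 8.76% of all genes. The called gene was Palmd, which encodes palmdelphin, at −0.33 ± 0.09 (SE, limma adjusted p = 0.0211), and without pairs 1 to 3 it was not called (−0.25, adjusted p = 0.307). With the replicate block, Sox7 and Notch4 were called lower and Fli1 higher (adjusted p = 0.0263, 0.0174 and 0.0286). Fli1 is also expressed by blood cells. The per-array mean of these markers was 7.32 ± 0.10 (SD) in controls and 7.31 ± 0.06 in mutants.

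Around these genes, 5 of 30 measured members of a list of further VEGF, angiopoietin and angiogenic signals were called, 3 higher and 2 lower, with a median difference of 0.01. This was 16.7% of the list, against 8.76% of all genes. The lists were chosen with earlier results of these data known, so such shares are no test of a list. Vegfc, a ligand of VEGFR3 best known from lymphatic vessels, lay between 6.63 and 7.51 in controls (median 7.26) and between 8.07 and 8.81 in mutants (median 8.50), with no overlap. It was 2.55-fold higher (1.35 ± 0.14, SE, limma adjusted p = 1.13e-05), and all 3 of its probe sets were higher, by 1.35 to 1.38. Its receptor gene Flt4 differed by −0.17 ± 0.09 (adjusted p = 0.308). Ramp1, like Ramp2, partners the calcitonin receptor-like receptor but makes a receptor for CGRP. By its brightest probe set Ramp1 was 2.61-fold higher (adjusted p = 1.78e-06) in 8 of 8 pairs. A dimmer Ramp1 probe set was higher by 0.54 ± 0.09 (SE, adjusted p = 0.000619 over all probe sets). Another differed by −0.02 ± 0.07 (adjusted p = 0.901). The control means of these dimmer probe sets, 5.10 and 5.30, lay below all array medians, where background may compress differences. The shared receptor gene Calcrl differed by −0.13 ± 0.15, and Ramp3 by −0.03 ± 0.09.

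Fgf1, a fibroblast growth factor, was 1.59-fold higher (adjusted p = 0.0157), and Pdgfa, a platelet-derived growth factor chain, was lower by a log2 difference of −0.37 (adjusted p = 0.00069). The fifth call, named because it completes the count, was Pgf, placental growth factor, another VEGFR1 ligand. It went from 8.35 ± 0.23 (SD) to 8.01 ± 0.19 and was lower in 8 of 8 pairs (limma adjusted p = 0.0464). Leaving out single arrays ended this call for 12 of 16 arrays, that is, for each one except replicates 2 and 3 of the mutants and 5 and 7 of the controls (adjusted p up to 0.0905). Pairs 4 to 8 alone did not give it either (adjusted p = 0.229).

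In the Notch and BMP9 pathway, which sets arterial and tip cell fate in vessels but also acts in other islet cells, 2 of 16 measured genes were higher and 1 lower. The share called was 18.75%, against 8.76% of all genes. The receptor gene Notch1 was 1.60-fold higher (adjusted p = 7.56e-05), with no overlap between groups. The Notch target genes did not move together: Hes1 was 1.22-fold higher (adjusted p = 0.0365) and Hey2, an arterial factor, 1.37-fold lower (adjusted p = 0.0133). Hey1 was not called (−0.04 ± 0.09, SE, adjusted p = 0.857). The Hey2 signal was dim, with a control mean of 5.53, under every array median. The endothelial ligand gene Dll4 and receptor gene Notch4 differed by −0.21 ± 0.09 and −0.24 ± 0.11 (SE) and were not called without the replicate block. With it Notch4 was called lower (adjusted p = 0.0174) and Dll4 was not (adjusted p = 0.161). With the replicate block the BMP target gene Id3, the Notch ligand gene Dll1 and Smad7 were also called higher (0.37, 0.26 and 0.18, adjusted p = 0.00327, 0.0177 and 0.0439). Without the block their adjusted p was 0.0587, 0.189 and 0.141, and Id3 was called without mutant replicate 1 (adjusted p = 0.0298). Hes1 did not pass in 9 of the fits with 1 array fewer, those lacking replicate 3, 4, 5 or 8 of the mutants or 2, 3, 4, 6 or 8 of the controls, where its adjusted p reached 0.0735. Neither Hes1 nor Hey2 passed in pairs 4 to 8 alone (adjusted p = 0.0798 and 0.0852). Nor did they with the 3′ minus 5′ difference as a covariate (adjusted p = 0.173 and 0.0993).

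Of 17 hypoxia response genes, 1 was higher and 1 lower, with a median difference of 0.06. At 11.8%, the share called was near the 8.76% of all genes. Pdk1, a kinase that restrains pyruvate oxidation, was 1.65-fold higher (adjusted p = 0.0081, and 0.0937 without pairs 1 to 3), and Ero1a, an oxidase of the endoplasmic reticulum, was 1.36-fold lower (adjusted p = 0.00285). Hif1a and Epas1, the oxygen-regulated factors upstream of Vegfa, differed by 0.14 ± 0.07 and 0.08 ± 0.10 (SE, adjusted p = 0.211 and 0.705).

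Among mural cells, the pericytes and smooth muscle cells that wrap vessels, 2 of 12 genes were lower and 1 was higher, with a median difference of −0.23. The share called was 25%, against 8.76% of all genes. Acta2, smooth muscle actin, went from 9.30 ± 0.52 (SD) to 8.32 ± 0.48 and was 1.98-fold lower, in 8 of 8 pairs (limma adjusted p = 0.0105). It was not called with the 3′ minus 5′ difference as a covariate (adjusted p = 0.0923). Myh11, smooth muscle myosin, was 1.45-fold lower (adjusted p = 0.0499), which ended on leaving out single arrays for 11 of 16, each one except replicates 1, 3 and 8 of the mutants and 1 and 5 of the controls (adjusted p up to 0.0971). Abcc9, a potassium channel subunit of pericytes, was 1.57-fold higher (adjusted p = 0.0212, and 0.0647 without pairs 1 to 3). With the replicate block 5 were lower and 2 higher, against 9.71% and 7.88% of all genes. One of the lower genes was Tagln (−0.46, adjusted p = 0.00109). Pericyte genes did not move together. Pdgfrb and Cspg4 differed by 0.24 ± 0.14 and −0.00 ± 0.06 (SE). Rgs5 and Notch3 differed by −0.37 ± 0.15 and −0.25 ± 0.08, and Kcnj8 by 0.35 ± 0.12. Rgs5, Notch3 and Kcnj8 were not called with all arrays (limma adjusted p = 0.142, 0.0535 and 0.0797). With the replicate block they were (adjusted p = 0.0136, 0.0133 and 0.0221).

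**Figure D4:**
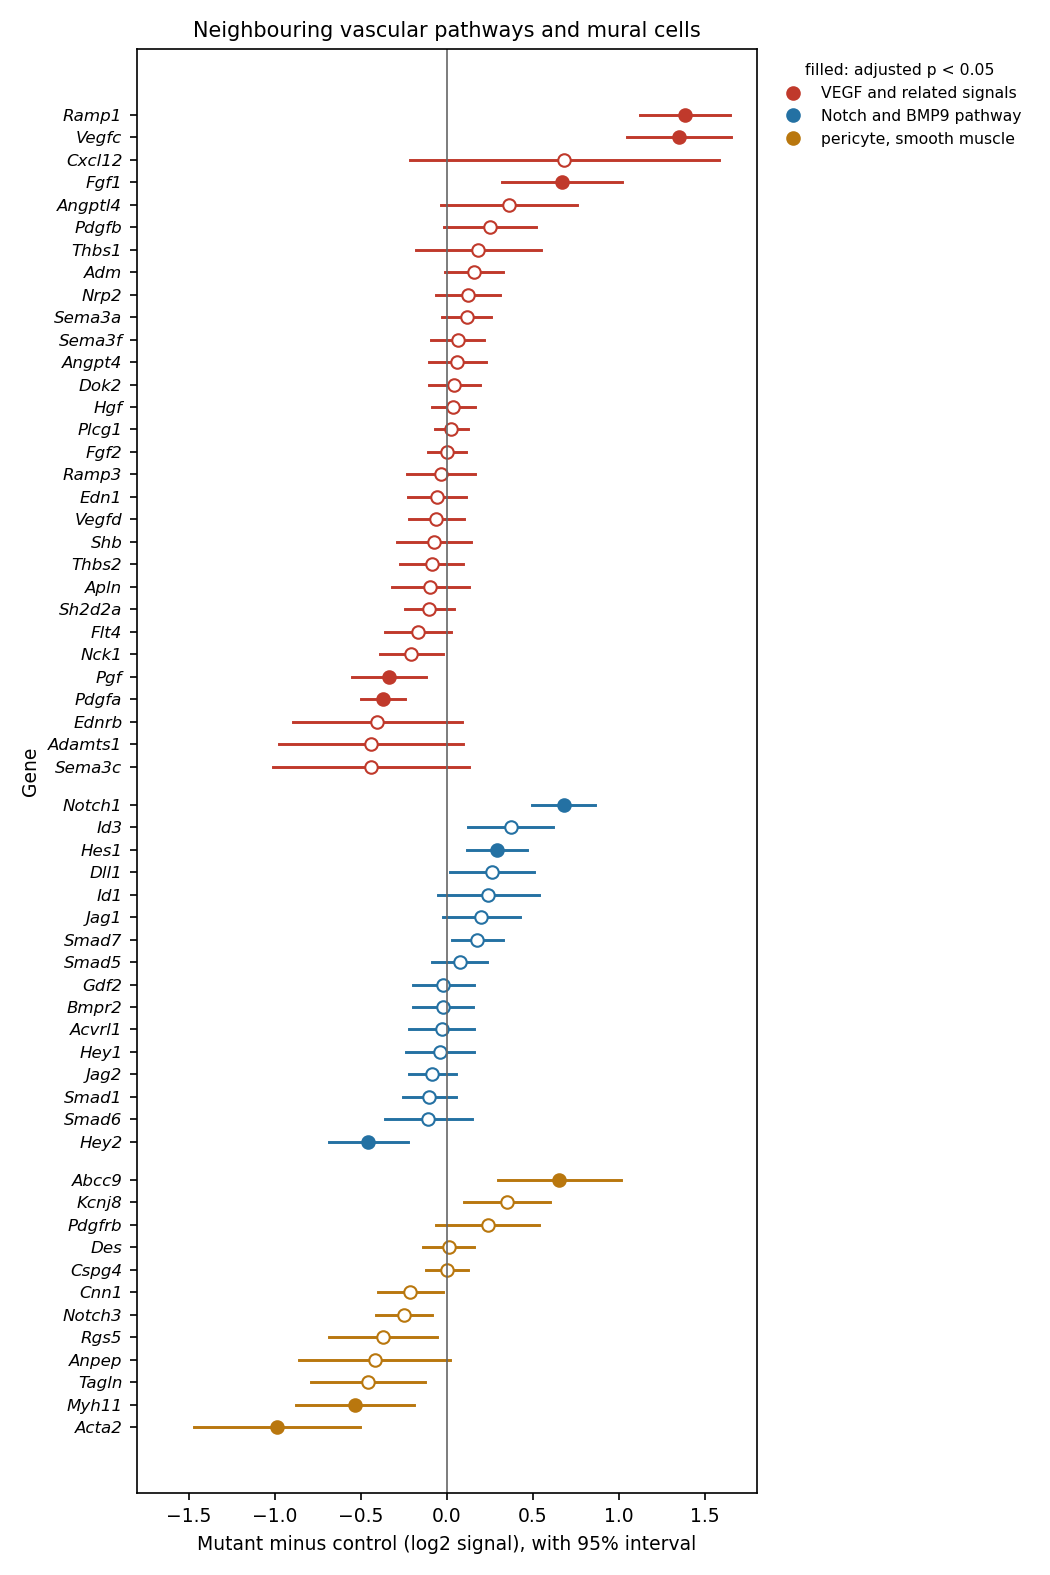
Mutant minus control difference in log2 signal (x axis) with its 95% interval for genes (y axis) of 3 lists around the 31: VEGF and related signals, the Notch and BMP9 pathway, and pericytes and smooth muscle. Filled points passed the adjusted threshold; Ramp1 (1.38) and Vegfc (1.35) are the largest rises and Acta2 (−0.98) the largest fall.

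Lymphatic endothelial markers gave 2 lower of 6 measured: Lyve1, a hyaluronan receptor also found on macrophages, at −2.56 ± 0.33 (SE, limma adjusted p = 7.72e-05), and Reln at −0.61 ± 0.18 (adjusted p = 0.0378). Of all genes, 4.66% were called lower. Reln did not pass in 10 of the fits with 1 array fewer, those lacking replicate 1, 4, 5, 6, 7 or 8 of the mutants or 2, 4, 5 or 7 of the controls (adjusted p up to 0.0733), nor in pairs 4 to 8 alone (adjusted p = 0.135). Stab2 was called higher with the replicate block (adjusted p = 0.0474) and not without it (adjusted p = 0.285). Prox1, the defining lymphatic factor that endocrine cells also express, differed by −0.02 ± 0.29, and Pdpn by 0.10 ± 0.16.

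Markers of other cells of the preparation are given here as values, and their part in the results above was not tested beyond the covariate fits. Beside the counts below, 8.76% of all genes were called without the replicate block and 17.6% with it. Of the 27 called genes of the lists around the 31, 0 were called by limma with the replicate block and both the acinar and immune marker means (lowest adjusted p = 0.0532). In that fit Palmd turned to 0.14 and Dcn to −0.17, and Acta2 was at −0.17, Myh11 at −0.15 and Col1a2 at 0.02. With the acinar marker mean alone 7 of the 27 were not called, namely Palmd, Pgf, Hes1, Abcc9, Myh11, Reln and Col1a2 (adjusted p from 0.0621 to 0.131). Calls were also lost with the 3′ minus 5′ difference as a covariate. Those of Acta2, Hey2, Palmd, Hes1, Bhlha15, Myh11 and Pgf were among them (adjusted p from 0.0923 to 0.279). Acinar marker means were 12.06 ± 0.76 (SD, 11.17 to 13.16) in controls and 10.73 ± 1.43 (8.47 to 12.74) in mutants, with 1 of 12 genes called, Bhlha15 (−0.53, limma adjusted p = 0.0399), and 11 with the replicate block, of lowest p Rnase1, Pnliprp1 and Cel after Bhlha15 (−1.945, −1.705 and −1.796). Bhlha15 did not pass in 11 of the fits with 1 array fewer, all except those lacking replicate 3, 4, 7 or 8 of the mutants or 1 of the controls (adjusted p up to 0.0813). Of 17 macrophage and lymphocyte genes C1qa was higher (0.88, adjusted p = 0.00598, and 0.114 without pairs 1 to 3), and the marker means were 7.15 ± 0.39 (6.78 to 8.03) and 7.55 ± 0.79 (6.84 to 8.80). Of 10 fibroblast genes Dcn and Col1a2 were higher (1.29 and 0.60, adjusted p = 0.00814 and 0.0145), joined with the block by Lum and Col1a1. Of 6 duct genes Krt19 was lower (−0.95, adjusted p = 0.0113, and 0.06 without pairs 1 to 3). Of 8 blood cell and platelet genes 0 were called by limma, 0 with an unadjusted p under 0.05, and Alas2 had the lowest p (adjusted p = 0.26). Of 8 beta-cell genes 6 were lower, with the lowest p for Ucn3, Pdx1, Slc30a8 and Slc2a2 (−1.37, −0.56, −0.34 and −0.89). G6pc2 and Nkx6-1 complete the 6 (−0.33 and −0.39), and Nkx6-1 was not called without pairs 1 to 3 (adjusted p = 0.0764).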

How the data were processed

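RNA of islets from 8 mutant and 8 control mice was extracted with Trizol, labelled by a 3′ IVT kit and hybridised to 1 array each, per the labels' protocols. The values are the log2 signals per probe set that the authors deposited; background correction, summarisation and normalisation are not given in the sources used here, and the log base was taken from the range of the values. Array medians lay between 6.29 and 6.35; precision is limited by how many arrays there are. Of 45101 probe sets, 34945 named 1 gene in the platform annotation, and symbols were updated to RefSeq (GRCm38.p6) for 34741. Groups were tested by limma 3.58.1, run in R 4.3.3 (lmFit, eBayes with a mean-variance trend, genotype as the only term, two-sided) over 18193 genes, without a filter on dim genes. Per the design text the preparations came from separate mice, so p-values measure the spread between animals. The main fit has no term for same-numbered pairs, so this spread includes what the arrays of a pair share. The fit with the replicate block takes that part out.

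The 31 genes and all lists were chosen with earlier results of these data known. Every member is given; array values are given for members called with or without the replicate block and for Pecam1, Cdh5, Kdr, Flt1, Vegfa and Angpt2, and of each other list up to 4 called genes of lowest p with and without the block, or the gene of lowest p.

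The groups share replicate numbers. Deviations from group means correlated in all 8 same-numbered pairs (0.237 to 0.735, median 0.466, against −0.10 for arrays of unlike number). For 13 of 16 arrays the partner of the same number was the closest, so the numbers were taken as pairs. In simulated arrays for this comparison (18193 genes), 86 of 100 genes changed 1.5-fold and 97 of 100 changed 3-fold were recovered. Of the calls, 7.58% were false. Each gene was drawn independently, without effects shared by pairs or preparations, so this share does not carry over to the real calls. The median SE of a difference was 0.098 for the endothelial and secreted signal genes described here and 0.078 over all genes tested. The recovered shares therefore do not give the chance of detecting such a change in the genes described here. Other settings tried were the replicate block, array weights, no trend, the mean over probe sets, a filter on dim genes, centring on medians, quantile normalisation, marker means or the 3′ minus 5′ difference as covariates, and leaving out arrays.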

Additional observations from a re-analysis of the deposited data

Results flagged for a closer look

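In groups of 8 arrays, an array was singled out where its gap to the nearest other array, as a share of the group's range, exceeded Dixon's 95% critical value. This held for 8 of the 62 combinations of gene and group, where chance gives about 1 in 20. Mutant replicate 1 was the low array for Cdh5 (6.53, next 6.93, gap 0.56 of the range), Esam (9.29, next 9.60, gap 0.652) and Tie1 (4.90, next 5.59, gap 0.613). Robo4 was high on replicate 2 in both groups, at 8.23 in the control (next 7.78, gap 0.782) and 8.18 in the mutant (next 7.74, gap 0.588). On control arrays, Nrp1 was low on replicate 5 (10.71, next 10.90, gap 0.666), Ramp2 low on replicate 1 (8.42, next 8.76, gap 0.548) and Egfl7 high on replicate 6 (8.52, next 8.37, gap 0.528).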

How the results depend on the processing

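The count of members called lower, 1 with all arrays (Vegfb), was 3 with the replicate block, 2 with the mean of probe sets (Angpt2 in addition), 2 with the acinar marker mean as a covariate (Egfl7 in addition) and 0 with the replicate block and the acinar and immune marker means together, a fit in which 10 of 18193 genes were called. The count called higher, 0 with all arrays, was 1 (Pecam1) with the 3′ minus 5′ difference as a covariate. Of all 18193 genes, 1594 were called in either direction with all arrays and 3200 with the replicate block. With the mean of probe sets 1475 were called, with the acinar marker mean 2058 and with the 3′ minus 5′ difference 1064. In the 16 fits that each left out 1 array these counts were 1 and 0. Vegfb was called in 30 of its 31 alternatives, with adjusted p from 0.000597 to 0.175 and differences from −0.91 to −0.41; leaving out single arrays gave −0.53 to −0.42. The exception was the block with both marker means (−0.91, adjusted p = 0.175). The replicate block changed no other call of the 31 genes than those of Ramp2 and Angpt1. The difference changed sign in 93 comparisons of 23 members, none of them called on either side. Among these, the block with both marker means turned Angpt2 from −0.17 to 0.07, S1pr1 from 0.14 to −0.52, Mmrn2 from −0.15 to 0.09 and Egfl7 from −0.14 to 0.13. Quantile normalisation and median centring changed no member's call.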
